A study of Mus musculus with 8 samples.

Results

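The genes of the Kv4 potassium channel complex were examined for accessible chromatin in mouse granule neuron progenitors (GNPs) that carried or lacked the chromatin remodelling enzyme Chd7. The complex was taken as 9 genes: the channel genes Kcnd1, Kcnd2 and Kcnd3, the cytoplasmic subunit genes Kcnip1, Kcnip2, Kcnip3 and Kcnip4, and the membrane subunit genes Dpp6 and Dpp10. Peaks were assigned by overlap with the gene body or the 10 kb on either side of it in the mm10 (GRCm38) genome. By this rule the genes held 278 of 152984 WT peaks, 204 of 106974 het peaks and 327 of 174407 mutant peaks, 809 of 434365 peaks in all. The genes were chosen by a measured value, the share of about 50% of Kcnd2 peaks in WT that the mutant list lacked, so the contrast of WT with mutant is given below as a description only.

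Chromatin was profiled by ATAC-seq, in which the transposase Tn5 cuts and tags open DNA, in GNPs prepared from the cerebellum on postnatal day 7. The WT cells (3 libraries) were Chd7 f/f, the het cells (2 libraries) Atoh1-Cre::Chd7 f/+ and the mutant cells (3 libraries) Atoh1-Cre::Chd7 f/f, by the study's methods. The labels give the strain of all of them as C56Bl6/J, while the methods give the N substrain as the breeding background. Cre was driven by Atoh1, a gene of the granule lineage, and the study names lower recombination with this line as the probable reason for Chd7 protein left in the posterior lobe. The methods describe WT and mutant libraries as technical replicates and do not separate the sexes of the pups. Each peak list was called on the pooled libraries of its genotype. No value below therefore has a replicate error, no difference between genotypes was tested, and the intervals printed are Wilson 95% intervals that cover counting error over peaks alone.

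Kv4 channels carry the A-type potassium current, which opens below the threshold for firing, inactivates quickly and delays the action potential. Each channel is built of pore-forming subunits from the Kcnd genes. KChIP proteins, calcium sensors with EF hands encoded by the Kcnip genes, bind the channel from inside the cell and bring more of it to the surface. The proteins of Dpp6 and Dpp10 span the membrane, have lost the peptidase activity of their relatives, and speed up gating. In the cerebellum Kv4.2 and Kv4.3, encoded by Kcnd2 and Kcnd3, are well known from granule cells.

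Pooled depth was 50394313 tags in the WT list, 51030229 in the mutant list and 30923002 in the het list. Tags were 107 bp long in the WT and het lists but 76 bp in the mutant list. Het peaks were called from another alignment with reads extended to 200 bp, so het heights cannot be set against the other lists. Where het tags are given below, they mark only that a het peak was listed. No order of the 3 genotypes can be read from them. Of 11 GNP markers, 10 had a promoter peak in WT, 10 in het and 11 in mutant, Atoh1, Pax6, Zic1 and Meis1 among them. Zic2 had a promoter peak in mutant alone, of 0.627 tags per 1000000, which enters the mutant sum given below. Promoter peaks were also listed at 4 of 5 Purkinje cell markers, 5 of 5 glial markers and 4 of 4 endothelial markers in each list, at 3 of 5 oligodendrocyte markers in each list, at 3, 2 and 3 of 4 interneuron markers in WT, het and mutant, and at 1 of 4 microglial markers in WT alone (Csf1r). Pcp2, Slc32a1, Sox10, Mog, Cx3cr1, Aif1 and C1qa had none in any list. Summed promoter height over the GNP markers was 12.1 tags per 1000000 in WT and 13.1 in mutant, over the Purkinje markers 2.90 and 3.29, over the glial markers 2.68 and 3.06, over the interneuron markers 1.41 and 1.47, over the oligodendrocyte markers 1.65 and 1.74, and over the endothelial markers 1.90 and 2.12. The part of other cell types in the values below was not tested, and in pooled cells a peak open in fewer cells cannot be told apart from a peak less open in each. A peak at the start sites of Chd7 reached 57 tags in WT and 52 in mutant. A promoter peak does not show whether the floxed part was deleted.

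Windows that reach 100 bases to either side of peak summits are printed here for the Kcnd2 positions that the description turns on, as the plus strand of GRCm38 from RefSeq, in lower case with motif matches in capitals. The motifs searched were the E-boxes CAGCTG and CAGATG, the nuclear factor I half-site TGCCAA, the AP-1 site TGANTCA and the Gli site GACCACCCA, each on both strands. The first 2 windows were peaks of the WT list with no mutant peak, the next 2 were peaks with a lower mutant height, and the fifth was kept at full height. The last line gives the 250 bases before the RefSeq start of Kcnd2, whose promoter was open in all 3 lists.
Kcnd2, WT peak without a mutant peak, 471 kb, chr6:21686510-21686710: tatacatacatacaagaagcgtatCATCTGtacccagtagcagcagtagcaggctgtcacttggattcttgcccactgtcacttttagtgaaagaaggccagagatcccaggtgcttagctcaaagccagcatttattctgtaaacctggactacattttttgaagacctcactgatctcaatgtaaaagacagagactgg
Kcnd2, WT peak without a mutant peak, 177 kb, chr6:21391913-21392113: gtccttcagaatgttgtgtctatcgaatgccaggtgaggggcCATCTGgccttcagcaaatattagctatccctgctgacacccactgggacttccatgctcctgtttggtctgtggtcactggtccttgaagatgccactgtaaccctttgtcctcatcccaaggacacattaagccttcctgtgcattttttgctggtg
Kcnd2, shared peak lower in mutant, 382 kb, chr6:21597571-21597771: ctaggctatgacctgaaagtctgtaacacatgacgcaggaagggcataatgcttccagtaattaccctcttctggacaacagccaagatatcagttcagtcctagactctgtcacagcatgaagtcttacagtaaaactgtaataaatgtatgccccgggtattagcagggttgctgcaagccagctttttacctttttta
Kcnd2, shared peak lower in mutant, 133 kb, chr6:21348429-21348629: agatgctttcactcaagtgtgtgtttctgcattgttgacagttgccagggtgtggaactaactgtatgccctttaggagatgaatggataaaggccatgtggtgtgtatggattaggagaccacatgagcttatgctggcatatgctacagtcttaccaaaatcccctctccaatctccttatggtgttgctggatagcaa
Kcnd2, shared peak kept, 320 kb, chr6:21534900-21535100: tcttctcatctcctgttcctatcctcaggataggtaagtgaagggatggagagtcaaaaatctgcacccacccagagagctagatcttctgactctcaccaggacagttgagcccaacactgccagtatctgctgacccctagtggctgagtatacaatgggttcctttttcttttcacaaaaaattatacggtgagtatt
Kcnd2, promoter, chr6:21215096-21215345: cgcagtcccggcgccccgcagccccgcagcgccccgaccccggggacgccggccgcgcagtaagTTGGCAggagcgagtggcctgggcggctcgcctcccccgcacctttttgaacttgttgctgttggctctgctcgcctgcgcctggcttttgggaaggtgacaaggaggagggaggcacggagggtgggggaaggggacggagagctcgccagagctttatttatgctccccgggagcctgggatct

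The distances in these lines are from the GENCODE start site of Kcnd2. All 5 windows lie in introns. The capitals in the windows at 471 and 177 kb mark an E-box match, read as CATCTG on the printed strand, and those in the promoter mark the half-site TGCCAA read as TTGGCA. No motif searched was found in the other 3. A further Kcnd2 peak with a lower mutant height, at 433 kb, is not printed. Its summit window held 1 match to TGCCAA and was 93.0% repeat-masked.

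Peak number followed gene length in part. Kcnip4 (chromosome 5, 48389502 to 49524907, minus strand) and Dpp6 (chromosome 5, 26817203 to 27727505, plus strand) held 62 and 77 WT peaks. Kcnd1 (chromosome X, 7822289 to 7838280, plus strand), the shortest of the 9, held 5. Per 100 kb of gene and flanks the order was different. Kcnd3 had 14.5 WT peaks per 100 kb, Kcnip3 14.0, Kcnd1 13.9, Kcnip2 13.6, Kcnip1 9.38, Dpp6 8.28, Kcnip4 5.37 and Kcnd2 5.24, and Dpp10 was the sparsest with 2.28. Introns held 237 of the 278 WT peaks (85.3%), start sites of the genes themselves 22 (7.91%) and start sites of neighbouring genes 6 (2.16%). Any annotated start site lay within 1 kb of 10.1% of these summits, against 16.1% over all WT peaks.

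**Figure D1:**
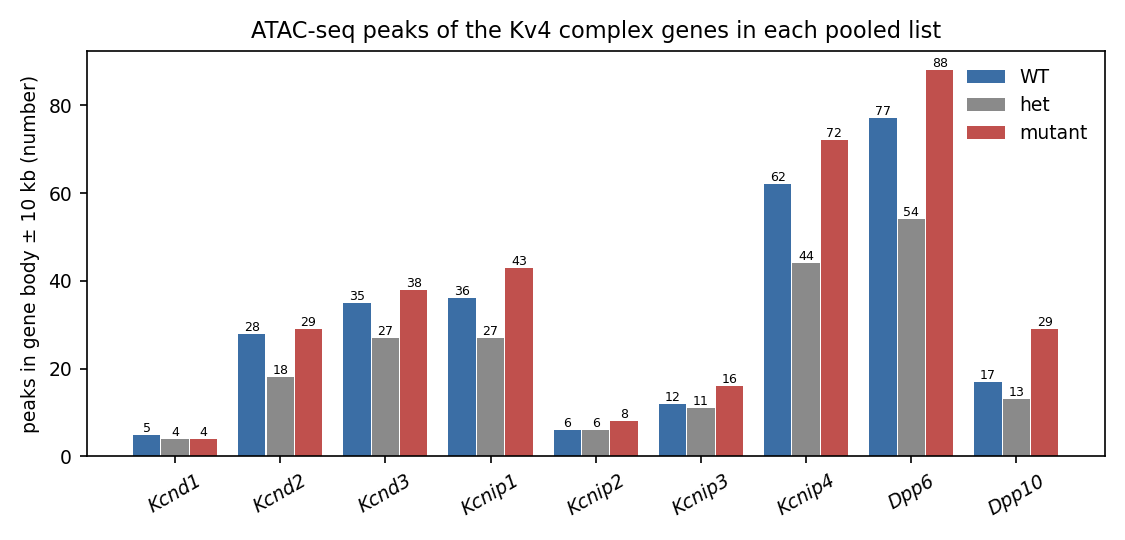
Number of peaks (y axis) that overlapped the gene body or 10 kb on either side of each of the 9 genes (x axis), with a bar for each pooled list. The mutant list held at least as many peaks as WT in every gene except Kcnd1, and Dpp10 went from 17 in WT to 29 in mutant.

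Peaks of all 3 lists that overlapped were joined into 397 regions. All 3 lists held 161 of them (40.6%, against 42.9% of the 207288 regions joined over all peaks). WT alone held 62 (15.6%, against 14.6%), mutant alone 93 (23.4%, against 21.9%) and het alone 21 (5.29%, against 3.82%). Of the 45 regions of Kcnd2, 11 were in all 3 lists, 12 in WT alone and 13 in mutant alone (24.4%, 26.7% and 28.9%). The 38 regions of Kcnd3 divided otherwise, with 25 in all 3 lists, 4 in WT alone and 5 in mutant alone (65.8%, 10.5% and 13.2%).

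Taken as 1 group and over the complete lists, the 9 genes were close to the rest of the genome in the contrast of WT with mutant. Of their 278 WT peaks, 70 had no mutant peak (25.2%, 20.4 to 30.6%), against 22.8% of all WT peaks. Of their 327 mutant peaks, 110 had no WT peak (33.6%, 28.7 to 38.9%), against 30.7% of all mutant peaks. Where -log10 q reached 5, 8 of 154 WT peaks lacked a mutant partner (5.19%, background 5.78%), and 25 of 192 mutant peaks lacked a WT partner (13.0%, background 11.2%). The channel genes lost 20 of 68 WT peaks, the Kcnip genes 28 of 116 and the Dpp genes 22 of 94. Without Kcnd2 the share was 56 of 250 (22.4%).

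**Figure D2:**
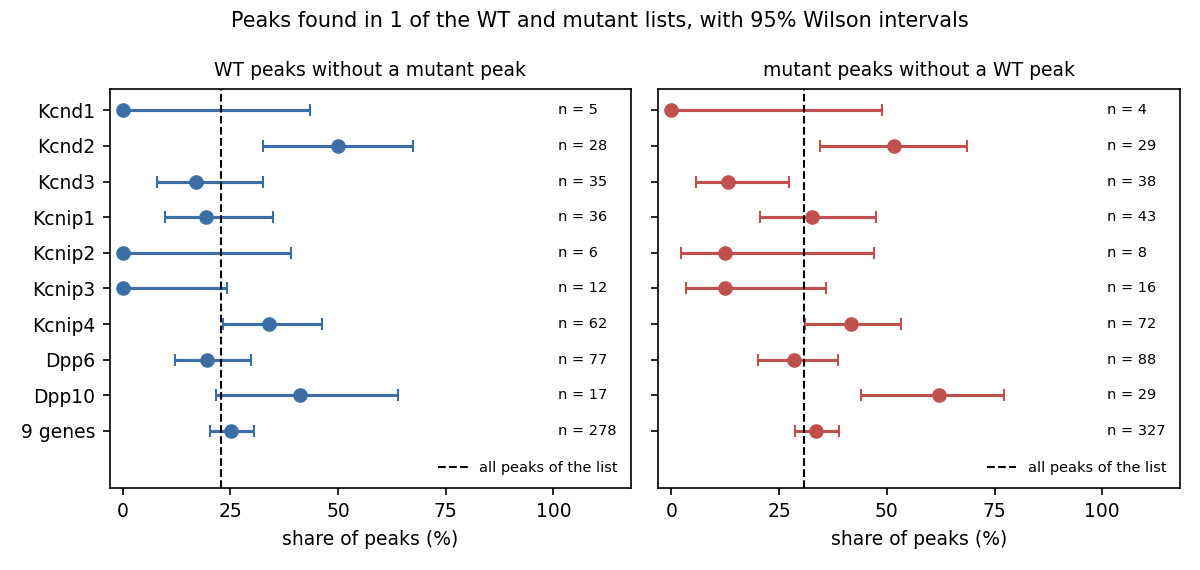
Share of the WT peaks of each gene without a mutant peak (left) and of the mutant peaks without a WT peak (right), in percent, with 95% Wilson intervals and the number of peaks. The dashed lines mark all peaks of the list, 22.8% and 30.7%. The intervals of Kcnd2 and Kcnip4 lie above the line in both panels, that of Kcnip4 by under 1 point, and that of Dpp10 in the right panel, while the 9 genes together sit on the lines.

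Weak peaks made up most of the difference between the lists, as they did elsewhere in the genome. The 70 WT peaks of the 9 genes without a mutant peak had a median -log10 q of 3.43 and a median height of 10 tags, and the 208 with a mutant peak 7.76 and 17.5 tags. When WT peaks were placed by rank, the percentage of WT peaks with the same or a lower -log10 q, 36 of 58 up to rank 20 had no mutant peak, against 0 of 55 between ranks 60 and 80 and 0 of 40 above that. Given the strength of their peaks, background shares in 10 classes of rank came to 72.0 lost peaks for the 9 genes, and 70 were counted. The same arithmetic came to 8.1 for Kcnd2, where 14 were counted, 5.4 for Dpp10 (7 counted), 20.7 for Kcnip4 (21 counted) and 20.9 for Dpp6 (15 counted).

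**Figure D3:**
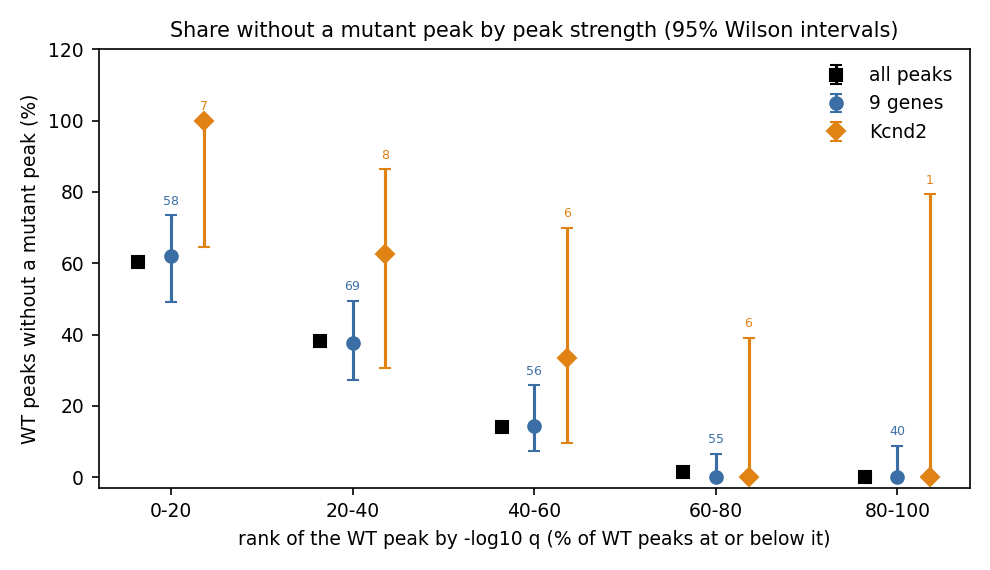
Percentage of WT peaks that lacked a mutant peak (y axis, with 95% Wilson intervals) in 5 classes of WT rank (x axis), for all WT peaks, the 9 genes and Kcnd2, with the number of peaks printed for the last 2. The 9 genes follow all peaks from 62.1% in the weakest class to 0.00% in the strongest, and Kcnd2 had 7 of 7, 5 of 8 and 2 of 6 in the 3 weakest classes.

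Kcnd2 (ENSMUSG00000060882.5, chromosome 6, 21215503 to 21729805, plus strand) encodes Kv4.2. Its peaks numbered 28, 18 and 29 in the WT, het and mutant lists. No mutant peak overlapped 14 of the WT peaks (50%, 32.6 to 67.4%), and no WT peak overlapped 15 of the mutant peaks (51.7%, 34.4 to 68.6%). At equal rank, background shares came to 28.9% and 47.7%. The total number of peaks was thus nearly equal in WT and mutant, with different positions in the lists. The WT peaks without a mutant peak were between 7 and 18 tags high, and the mutant peaks without a WT peak between 7 and 12 tags.

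**Figure D4:**
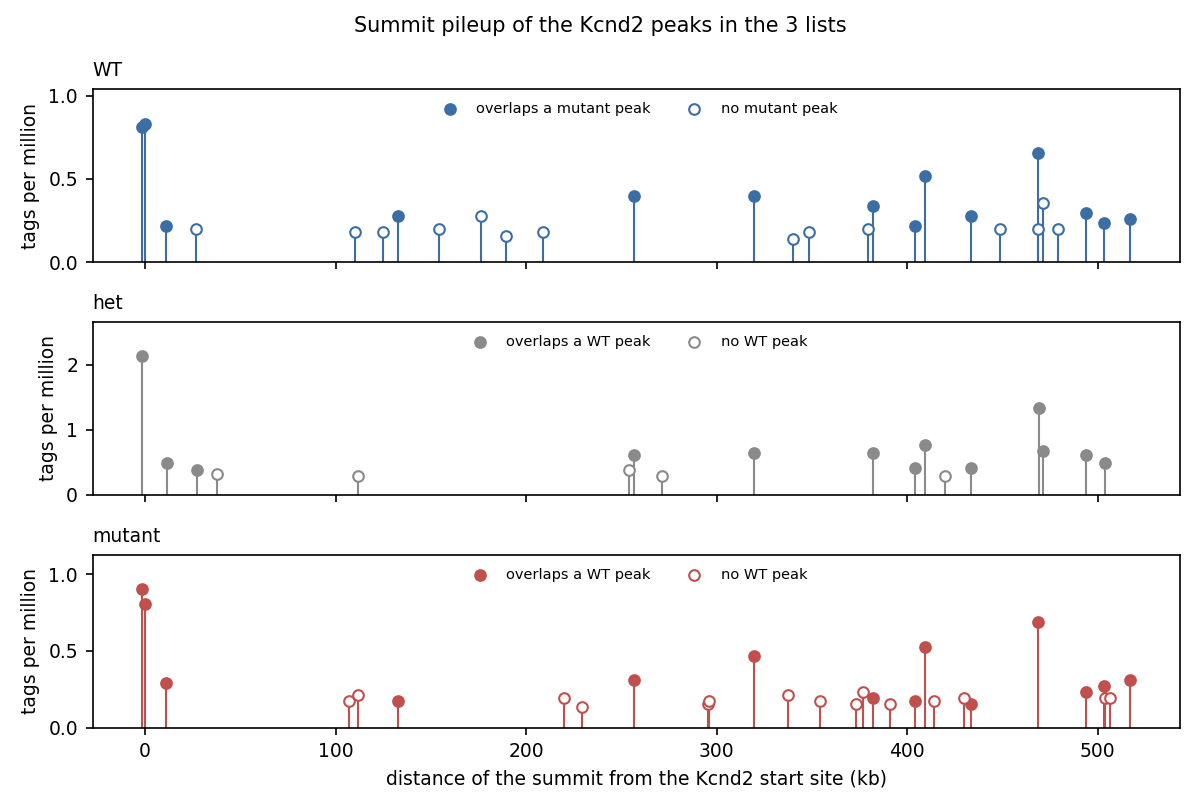
Summit height in tags per 1000000 (y axis, own scale for each list) of the Kcnd2 peaks against the distance of the summit from the start site in kb (x axis), in WT, het and mutant. Open circles mark peaks with no partner, in the mutant list for WT and in the WT list for het and mutant. The tallest peaks, at the promoter and at 469 kb, are filled in every list, and no open circle reaches their height. The tallest open circle in WT, at 471 kb (0.357), stands above some filled ones, such as that at 382 kb (0.337).

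Neither the promoter peak nor the peak just upstream of it was among those lost. The peak over the start site (21214486 to 21215871) was 42 tags high in WT and 41 in mutant, and the peak just upstream (21213956 to 21214317) 41 and 46 tags. A single het peak of 66 tags spanned both. The tallest intronic peak, at 21684235 to 21684748, had 33 tags in WT and 35 in mutant, and the next, at 21624794 to 21625025, had 26 and 27. The intronic peak at 320 kb printed above (21534795 to 21535104) had 20 tags in WT and 24 in mutant, and a het peak was listed there. Heights at these positions were alike in WT and mutant.

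Of the 13 Kcnd2 peaks in WT whose -log10 q reached 5, 2 had no mutant peak (15.4%, 4.33 to 42.2%). Over all WT peaks that reached 5 the share was 5.78%, which lies inside this interval and was not matched for rank. The stronger (21686536 to 21686793, 471 kb into the gene) had 18 tags in WT and a het peak. The other (21391940 to 21392061, 177 kb) had 14 tags in WT and no het peak. A further 3 were at least 1.5-fold lower in mutant once ratios were centred on the median of all shared peaks. At 382 kb (21597554 to 21597736) height was 17 tags in WT and 10 in mutant, a centred log2 ratio of -0.86. At 433 kb (21648883 to 21649051) it was 14 and 8 tags (-0.90), and at 133 kb (21348447 to 21348638) 14 and 9 tags (-0.73). Het peaks were listed at 382 and 433 kb but not at 133 kb. No shared Kcnd2 peak was 1.5-fold higher, and the largest ratio was 0.35, at 11.3 kb with 11 tags in WT and 15 in mutant.

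A mutant peak of -log10 q 5 or more was missing at 6 of those 13 positions (46.2%, 23.2 to 70.9%), against 13.7% over all WT peaks that reached 5. That background was not matched for rank and holds many taller peaks. Above rank 80, where Kcnd2 had 1 WT peak, 0.0327% of all WT peaks lacked any mutant peak. The 46.2% also comes from the contrast by which the genes were chosen, and the size of the gap was not tested. Het peaks were present at 4 of the 6. In the other direction, 2 of 9 Kcnd2 mutant peaks of that strength had no WT peak as strong (22.2%, 6.32 to 54.7%), against 24.0% over all such mutant peaks, and each of the 9 overlapped some WT peak. The strongest mutant peaks with no WT peak within 300 bp were 12, 11 and 11 tags high, at 21592100 to 21592209, 21327304 to 21327575 and 21552615 to 21552826. Het held a peak at the second of them. Heights of this size are few tags above the 7 tags at which the lowest peaks of both lists were called.

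Kcnd3, which encodes Kv4.3 (chromosome 3, 105452330 to 105674002, plus strand), kept most of its peaks. Of 35 WT peaks, 6 had no mutant peak (17.1%, 8.10 to 32.7%), against 22.8% of all WT peaks. Of 38 mutant peaks, 5 had no WT peak (13.2%, 5.75 to 27.3%). That interval lies below the background of 30.7% but not below the 27.0% of background peaks of equal rank. Its promoter peak had 26 tags in WT and 28 in mutant. An intronic peak at 105643670 to 105643947 had 23 tags in WT and 11 in mutant, a centred log2 ratio of -1.16. A peak at 105506601 to 105507146 went the other way with 22 and 43 tags (0.87). Het held a peak at both positions. The strongest WT peaks without a mutant peak within 300 bp had 20 tags (105483882 to 105484019) and 16 tags (105605850 to 105606207), the second with a het peak of 18 tags. Kcnd1, which encodes Kv4.1, lost none of its 5 WT peaks, a count that allows a share of up to 43.4%. Its start site carried 2 narrow WT peaks of 11 and 12 tags and 1 wide mutant peak of 18 tags, and its flanks reach Gripap1 and Otud5.

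The summit windows of Kcnd3 and Dpp10 with the lowest ratios of their genes, and the strongest Dpp10 peak found in mutant without WT, are printed in the same way.
Kcnd3, shared peak lower in mutant, chr3:105643724-105643924: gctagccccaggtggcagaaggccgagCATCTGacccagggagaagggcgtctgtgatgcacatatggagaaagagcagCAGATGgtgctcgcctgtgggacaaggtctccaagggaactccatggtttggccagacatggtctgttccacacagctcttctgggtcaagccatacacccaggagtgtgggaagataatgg
Dpp10, shared peak lower in mutant, chr1:123359866-123360066: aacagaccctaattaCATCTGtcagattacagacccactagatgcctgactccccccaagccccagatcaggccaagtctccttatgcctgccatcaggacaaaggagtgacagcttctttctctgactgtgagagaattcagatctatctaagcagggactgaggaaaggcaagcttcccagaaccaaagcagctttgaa
Dpp10, mutant peak without a WT peak, chr1:123995858-123996058: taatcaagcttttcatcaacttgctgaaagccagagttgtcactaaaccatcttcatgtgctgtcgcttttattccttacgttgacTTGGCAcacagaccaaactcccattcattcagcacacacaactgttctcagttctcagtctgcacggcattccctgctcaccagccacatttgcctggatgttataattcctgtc
The capitals in the first mark 2 matches to CAGATG, on opposite strands, those in the second 1 match to it and those in the third 1 match to TGCCAA.

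Among the calcium sensor genes, Kcnip2 (chromosome 19, 45791839 to 45816061, minus strand), known as the KChIP of the heart, and Kcnip3 (chromosome 2, 127456498 to 127522094, minus strand), which also encodes the transcriptional repressor DREAM, kept each of their 6 and 12 WT peaks. Counts of 0 allow shares of up to 39.0% and 24.2%. The 12 Kcnip3 peaks had a median rank change, mutant rank minus WT rank, of 10 points, where all shared peaks had a median of 2.28, and 2 of 12 had a lower rank in mutant (16.7%, 4.70 to 44.8%), against 38.1% of all shared peaks. Its promoter peak had 59 tags in WT and 59 in mutant, and 82 in het. At Kcnip2 the start site peak had 20 tags in WT and 24 in mutant, and a peak at an internal start site (45812225 to 45812554) had 20 and 14 tags (-0.61).

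Kcnip1 (chromosome 11, 33629339 to 33993152, minus strand) lost 7 of 36 WT peaks (19.4%, 9.75 to 35.0%), all of them under a -log10 q of 5, and 14 of its 43 mutant peaks had no WT peak (32.6%, 20.5 to 47.5%). The promoter peak, the highest of the gene, had 66 tags in WT, 74 in mutant and 97 in het. The internal start site at 33843482 to 33843814 had 15 tags in WT, 23 in mutant and 21 in het (0.52). The longest gene, Kcnip4, had no mutant peak at 21 of 62 WT peaks (33.9%, 23.3 to 46.3%) and no WT peak at 30 of 72 mutant peaks (41.7%, 31.0 to 53.2%), and background peaks of equal rank came to 33.4% and 40.8%. Its strongest lost peak, and the strongest of all 9 genes, at 49298722 to 49298918, had 16 tags and a -log10 q of 8.79. Of 4 start sites of Kcnip4 with WT peaks, heights in WT and mutant were 45 and 45, 57 and 59, 27 and 23, and 48 and 53 tags.

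The membrane subunit genes differed from each other in the complete lists. Dpp6 lost 15 of 77 WT peaks (19.5%, 12.2 to 29.7%) and 25 of its 88 mutant peaks had no WT peak (28.4%, 20 to 38.6%), both below the backgrounds of 22.8% and 30.7%, which lie inside the intervals. Its start sites were open in all lists, the tallest, at 26903939 to 26905088, with 75 tags in WT, 66 in mutant and 109 in het. Dpp6 held 5 shared peaks at least 1.5-fold lower and 6 at least 1.5-fold higher in mutant. Among the lower were 27380870 to 27381315 with 29 tags in WT and 17 in mutant (-0.86), and among the higher 27615787 to 27616063 with 15 and 27 tags (0.75). The largest ratio of the gene, 1.49 at 26818053 to 26818151, came from a narrow WT peak of 13 tags that lies beside the promoter peak and overlaps the same mutant peak of 39 tags. With both lists at -log10 q of 5 or more, Dpp6 and Dpp10 were alike. No WT peak as strong was found at 21 of 55 Dpp6 mutant peaks (38.2%, 26.5 to 51.4%) and 5 of 13 in Dpp10 (38.5%). The background was 24.0%. No mutant peak as strong was found at 9 of 42 Dpp6 WT peaks (21.4%) and 2 of 9 in Dpp10 (22.2%). The background was 13.7%, and neither background was matched for rank.

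Dpp10 (chromosome 1, 123321471 to 124045559, minus strand) went from 17 WT to 29 mutant peaks. It lost 7 of 17 (41.2%, 21.6 to 64.0%), against 31.5% at equal rank. Of its 29 mutant peaks, 18 had no WT peak (62.1%, 44.0 to 77.3%), against 46.2% at equal rank. Of its 13 mutant peaks whose -log10 q reached 5, 5 had no WT peak (38.5%, 17.7 to 64.5%), against the background of 11.2%. That background was not matched for rank. The strongest, at 123995780 to 123996064, had 16 tags in mutant and 17 in het, and the next, at 123782354 to 123782484, had 14 tags in mutant and no het peak. A tall but narrow mutant peak of 24 tags at 124041717 to 124041806 lies 3.8 kb from the start site. The promoter peak had 50 tags in WT, 45 in mutant and 61 in het.

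Of the 10 peaks that Dpp10 shared between WT and mutant, 6 had a lower rank in mutant, and the interval of that share, 31.3 to 83.2%, holds the 38.1% of all shared peaks. The median rank change was -6.70 points, the lowest of the 9 genes. The peak at 123359855 to 123360078 printed above had 28 tags in WT and 12 in mutant, a centred log2 ratio of -1.32 and the lowest of the 208 shared peaks. A peak at 123707255 to 123707627 had 31 and 21 tags (-0.65). Het held a peak at both positions.

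**Figure D5:**
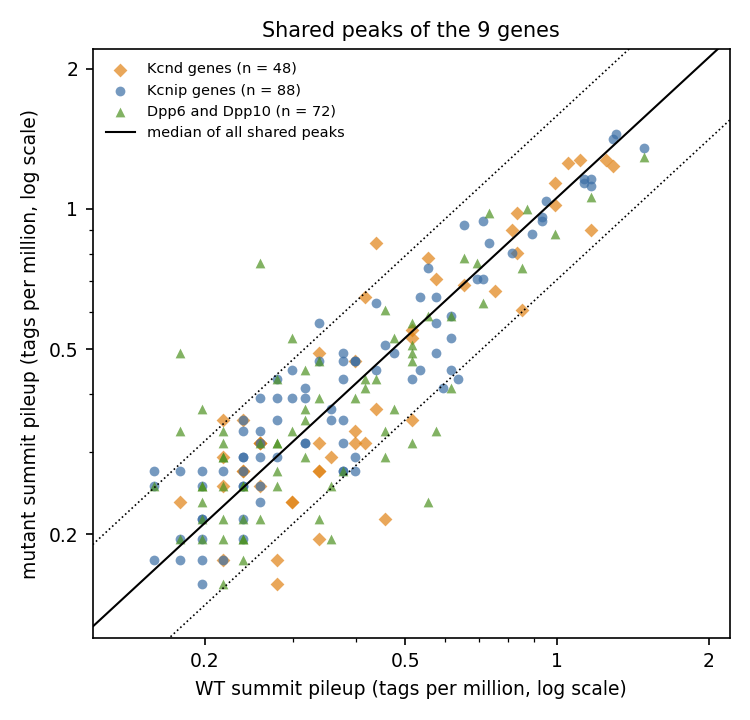
Summit height of the 208 WT peaks of the 9 genes with a mutant peak, in tags per 1000000 on log scales, in WT (x axis) and mutant (y axis), by kind of gene. The solid line is the median ratio of all shared peaks and the dotted lines are 1.5-fold from it. Of the points, 15 lie on or below the lower line and 11 on or above the upper.

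Over the 9 genes, 15 of 208 shared peaks were at least 1.5-fold lower in mutant (7.21%, 4.42 to 11.6%), against 5.10% of all shared peaks, and 11 were at least 1.5-fold higher (5.29%, 2.98 to 9.22%), against 6.22%. Kcnd2 accounted for 3 of the lower peaks and Dpp6 for 5. The median rank change of the 208 peaks was 2.54 points, against 2.28 over all shared peaks, and 81 had a lower rank in mutant (38.9%, 32.6 to 45.7%), against 38.1%. The kinds of subunit lay near each other, with medians of 1.92 for the channel genes, 3.93 for the Kcnip genes and 2.54 for the Dpp genes.

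Het peaks were not used to choose the genes. Of the 278 WT peaks, 176 overlapped a het peak (63.3%, 57.5 to 68.8%), against 63.1% of all WT peaks and 58.8% at equal rank. For Kcnd2 the number was 14 of 28 (50%, 32.6 to 67.4%) and for Dpp10 7 of 17 (41.2%, 21.6 to 64.0%), while Kcnd3 had 28 of 35 (80%, 64.1 to 90%) and Kcnip3 11 of 12. At equal rank the background came to 54.8% for Kcnd2 and 52.8% for Dpp10. Het peaks were found at 8 of the 70 WT peaks without a mutant peak (11.4%, 5.91 to 21%, background 13.2%) and at 17 of the 110 mutant peaks without a WT peak (15.5%, 9.88 to 23.4%, background 15.2%). Within Kcnd2 these were 2 of 14 and 2 of 15. Of the 26 WT peaks of -log10 q 5 or more in the 9 genes without a mutant peak as strong, 16 had a het peak (61.5%, 42.5 to 77.6%), where 40.6% of all such WT peaks had. That background was not matched for rank, and the 26 peaks were picked by the contrast that served to choose the genes. The gap was not tested.

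The rule also sets the edge of each window. Just inside 10 kb, the farthest counted WT peak lay 9812 bp past the end of Dpp6 (27737317 to 27737505) with 14 tags in WT and 16 in mutant. The nearest left out lay 10962 bp past the end of Kcnd2 (21740767 to 21740868) with 13 tags in WT and 11 in mutant.

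Kcnd2 was then placed among other genes with 14 to 56 WT peaks in body and flanks. Of 1687 such genes, 30, Kcnd2 included, had at least as large a share of WT peaks that lacked a mutant partner, and 43 as large a share of mutant peaks that lacked a WT partner. Medians over these genes were 20% and 26.9%. For the 462 of them that were 300 kb or longer the medians were 23.8% and 33.3%, and 17 reached the first share of Kcnd2 and 31 the second. Nearest to Kcnd2 over 3 values (both shares and the share of WT peaks with a het peak) were Spock3, at a distance of 4.87 percentage points, Cep128 at 7.88, Hmcn1 at 7.99, Nbas at 8.29 and the long non-coding Gm29865 at 8.33. Spock3 had lost 7 of 15 WT peaks and Cep128 13 of 26. Genes that overlap share peaks, the first share is the one by which the genes were chosen, and these counts are a description of the lists.

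Other channel and calcium sensor genes were counted by list. Over all peaks, 22.8% in WT lacked a mutant peak and 30.7% in mutant lacked a WT peak. The 37 pore-forming Kv genes outside the Kv4 family had 369 WT peaks, of which 76 had no mutant peak (20.6%, 16.8 to 25%), where peaks of equal rank came to 23.7%. Of their 410 mutant peaks, 121 had no WT peak (29.5%, 25.3 to 34.1%). The long genes Kcnq5, an M-current channel, and Kcnh7, an Erg channel, lost 13 of 33 and 13 of 36 (39.4% and 36.1%). Kcnb2, a delayed rectifier, lost 3 of 27 (11.1%). The 8 genes of Kv beta and minK subunits lost 11 of 71 (15.5%, 8.88 to 25.7%) where peaks of equal rank came to 17.2%. The 7 neuronal calcium sensors, relatives of the KChIPs such as Ncald and Vsnl1, lost 20 of 83 (24.1%, 16.2 to 34.3%) where peaks of equal rank came to 17.5%. The 5 DPP relatives that keep or resemble the peptidase, such as Dpp4 and Fap, lost 9 of 29 (31.0%, 17.3 to 49.2%) where peaks of equal rank came to 23.6%. The intervals of the WT shares of all these lists include the 22.8% of all WT peaks and the share at equal rank. Each of them includes the share of the 9 genes, 25.2%, except that of the pore-forming genes, which ends just under it.

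GC content was lower in the windows of Kcnd2 and Kcnip4 than in those of the shorter genes. The median of the summit windows was 45.5% in Kcnd2, 46.3% in Kcnip4 and 48.8% in Dpp10, against 51.7% over all WT peaks and 60.4% in Kcnip2. Windows of the 9 genes that were mostly repeat-masked numbered 12 of the 70 without a mutant peak (17.1%) and 6 of the 208 with it (2.88%), and over all WT peaks these shares were 16.2% and 3.53%. In Kcnd2 they were 3 of 14 and 2 of 14. The Kcnd2 peak lower in mutant at 433 kb was 93.0% masked. Masked sequence is harder to map with shorter reads, and tag size was 76 bp in mutant and 107 bp in WT. The part of this in the counts was not tested.

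Matches to the 5 motifs were counted in the same windows, with overlapping matches of different motifs counted for each. CAGATG was found in 98 of the 278 WT windows (35.3%, 29.9 to 41.0%), against 28.6% of all WT windows, and CAGCTG in 48 (17.3%, 13.3 to 22.1%), against 23.6%. The half-site TGCCAA was in 23.0% and TGANTCA in 7.19%, against 21.8% and 6.24%, and GACCACCCA in 0 of 278, against 0.280%. In Kcnd2 CAGATG was in 8 of the 14 windows without a mutant peak (57.1%, 32.6 to 78.6%) and in 3 of the 14 with it (21.4%, 7.57 to 47.6%), while all WT windows gave 27.3% and 29.0%. The 9 genes together gave 24 of 70 and 74 of 208. TGCCAA went the other way in Kcnd2, with 1 of 14 and 5 of 14. The intervals of both pairs overlap. A match marks letters alone and is not evidence of binding.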

How the data were processed

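ATAC-seq libraries of GNPs from mice at postnatal day 7 (3 WT, 3 mutant, 2 het) were grouped by the genotype in their titles. The authors trimmed reads with Trim Galore 0.4.1, aligned them with STAR 2.5.0b (WT, mutant) or Bowtie 1.0.0 (het), used Picard 1.139, and called peaks with MACS2 2.1.0.20150731 on pooled libraries at a q-value cutoff of 0.05, per the labels and file headers. Het reads were shifted by -100 bp and extended to 200 bp. The study's methods name Bowtie 1.0.0 with this shift and extension for ATAC-seq and do not separate the genotypes. Each deposited list gives the pileup signal at the summit in tags, not scaled to depth, the fold enrichment as a ratio over local background, and the -log10 q of the peak caller. All value columns used were pooled by genotype, and 0 were left without a group.

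Genes were those of GENCODE M21, protein-coding and long non-coding. Peaks were shared when they overlapped by at least 1 bp, with the strongest partner kept. Heights were divided by tags, and log2 ratios of mutant to WT were centred on the median of all 118098 shared peaks (0.08). Background shares at equal strength used 10 classes of rank. Peaks named were promoter peaks (summit within 1 kb of a start site) and, for the 6 longer genes, the 3 strongest peaks without a partner within 300 bp in each direction and the 3 lowest and 3 highest ratios of shared peaks with a WT -log10 q of 5 or more. Of these, a part is printed. Genes like Kcnd2 were the 5 nearest by Euclidean distance. Alternatives were a 50% reciprocal overlap, a distance of 300 bp, stricter lists, lists of equal length and narrower windows. Overlap functions were tested on simulated intervals. Sequences came from RefSeq GRCm38, and 15 of 15 promoter entries of the 9 genes matched the genome. The member genes, other gene lists and motifs were chosen with earlier results of these data known. Python 3.11.15, numpy 2.4.6 and pandas 2.3.3 were used.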

Additional observations from a re-analysis of the deposited data

How the results depend on the processing

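No paired analysis was possible because each list pooled all libraries of a genotype, which also left no replicate to leave out. A 50% reciprocal overlap raised the share of WT peaks of the 9 genes without a mutant peak to 41.0% (35.9% over all WT peaks) and the share of mutant peaks lacking a WT partner to 49.8% (43.8%), and lowered the share of WT peaks with a het peak to 47.8% (50.1%). Counting only peaks of -log10 q 5 or more against complete lists gave 5.19%, 13.0% and 87.0% (5.78%, 11.2% and 84.2% over all). The Kcnd2 share was then 15.4% (5.78% over all) and the median rank change of the 9 genes 0.532 points (0.924 over all). With both lists at that strength the first share was 16.9% (13.7% over all) and the het share 77.3% (77.5% over all). With lists of 106974 peaks each, the share of mutant peaks without a WT peak was 22.6% (18.6% over all). The het share was 83.3% (79.3% over all) and the median rank change -0.281 points (0.0365 over all). Stricter lists hold fewer weak peaks, and weak peaks were most often unshared. The other 23 of 36 values for the 9 genes together and Kcnd2 stayed inside the counting interval of the main value, or kept its sign where heights replaced ranks. For single genes other than Kcnd2, 13 of 56 shares left that interval. Kcnd2 had the highest share of the 9 genes in 7 of 8 settings, and with the reciprocal overlap Dpp10 had 52.9% against 50%. The genes were chosen by this Kcnd2 share and the settings recount the same peaks, so the ranking lends it no separate support. Heights of 7 to 20 tags limit every statement on single weak peaks.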
